A study of Homo sapiens with 2 samples.

Results

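The 10 genes described here encode the cytokines and chemokines by which natural killer (NK) cells act on other immune cells. They are the interferon gene IFNG, the tumour necrosis factor genes TNF, LTA and LTB, the growth factor gene CSF2, and the chemokine genes CCL3, CCL4, CCL5, XCL1 and XCL2. They were taken by symbol from the 46427 genes of the deposited count table, and all 10 were listed there.

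The libraries were made from NK92, an established human NK cell line, and compare transcription with and without an antibody against the transferrin receptor. They hold no measure of iron uptake. Both dishes came from a single culture in 2% human serum that was split after 18 h. For 6 h from then on, the exposed dish held 10 µg/mL of PPMX-T003, an inhibitory antibody against the transferrin receptor TfR1, and the unexposed dish held none. Poly(A) RNA of each dish was sequenced as 1 stranded library, with 46766416 counts unexposed and 43178462 counts exposed. The table calls its columns 0 h and 6 h. The column named 0 h was taken for the unexposed dish, so any difference in the time of harvest would coincide with exposure. NK92 is a single line grown in culture, and with 1 library per condition no difference below has a replicate check. Fold changes are log2 ratios of CPM after TMM scaling, exposed minus unexposed, with a prior count of 2. Their 95% Clopper-Pearson intervals cover counting error only and compare these libraries, not the conditions.

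Interferon gamma activates macrophages and raises antigen presentation, while TNF and the lymphotoxins act through TNF receptors on inflammation, cell death and the structure of lymphoid tissue. CCL3, CCL4 and CCL5 attract T cells, monocytes and NK cells through chemokine receptors such as CCR1, and XCL1 and XCL2 attract cross-presenting dendritic cells through XCR1. NK cells keep some of these transcripts at hand before any contact with a target and build up others only after activation, and many of the mRNAs carry AU-rich elements that shorten their life.

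The NK label was checked first. Of 12 NK cell markers, 0 were without counts in both libraries, and their summed TPM was 6765 unexposed and 7345 exposed. NKG7, a protein of cytotoxic granules, was the most abundant, with a TPM of 3215 and 3445. GZMB, the granzyme B gene, had 34265 and 38124 counts, and GNLY, the granulysin gene, 3362 and 3621. The adaptor gene FCER1G was low, with 99 and 86 counts. Among 7 T cell markers, 5 had 0 counts in both libraries (CD3D, CD3G, CD8A, CD8B and CD5), CD4 had 4 and 0 counts, and the costimulatory receptor gene CD28 had 2252 and 1803. Among 5 B cell markers, MS4A1 was at 0, and PAX5, the most abundant, had 169 and 78 counts. Among 8 monocyte or macrophage markers, FCN1 was at 0, CD14 had 0 and 7 counts and LYZ 2 and 0, whereas S100A9 had 4699 and 4434 counts, CD68 188 and 268 and S100A8 176 and 126. All 5 erythroid markers and 3 of 4 fibroblast or endothelial markers were at 0, and PECAM1 had 2 and 0 counts. Most markers of other cell types were thus at or near 0. Of the exceptions, S100A9 and CD28 had the most counts, and CD68, S100A8 and PAX5 had fewer. A listed 0 was common in general, since 27349 of 46425 genes of the table were at 0 in both libraries. In bulk RNA, fewer cells that express a gene and less RNA per cell cannot be told apart.

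Of the 10 members, 9 had at least 20 counts summed over the libraries and were tested, and CSF2 had none. No member differed by 2-fold or more in either direction, against 1.27% of the 13665 genes tested that were higher by 2-fold or more with PPMX-T003 and 1.38% that were lower by as much. The counting interval lay above 0 for 5 members (LTB, CCL3, CCL5, XCL1 and XCL2) and below 0 for 1 (CCL4), and it held 0 for 3 (IFNG, TNF and LTA). Among all genes tested, the interval lay above 0 for 21.8% and below 0 for 23.9%. Deep counts give narrow intervals, and among the 8359 genes with at least 1000 counts, a depth chosen after seeing the data, these shares were 27.8% and 32.1%. With median-of-ratios scaling the members' counts became 5 above and 3 below 0, because the intervals of IFNG and LTA then ended at -0.0054 and -0.0029. The median log2 fold change of the 9 members was 0.16, and that of all genes tested was -0.0020. The members' median was smaller after a fit on length and GC content, at 0.098 against 0.0028 for all genes, and with TPM, at 0.11. Without the fit, the 12 NK cell markers had a median of 0.13, with 6 above 0 and 3 below, and after it a median of 0.047. The members' values ran from -0.10 for IFNG to 0.33 for XCL1. Of the genes with at least 1000 counts, the central 95% lay between -0.33 and 0.27, which holds every member of that depth except XCL1. Likeness of pattern between genes was not computed, since 2 libraries give each gene a single difference.

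**Figure D1:**
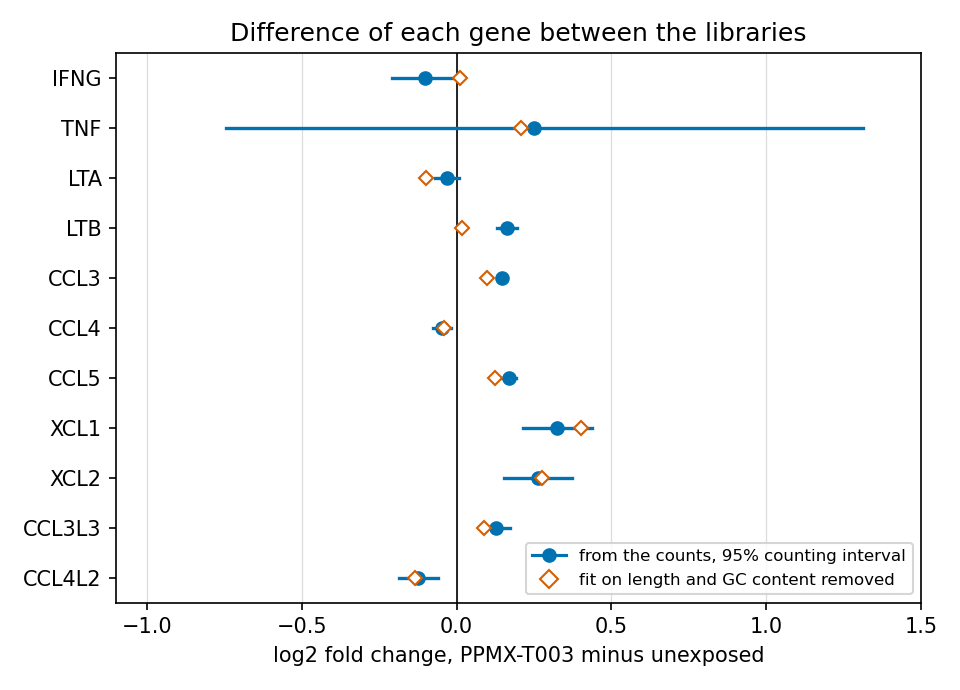
Log2 fold change of each tested member and of the copies CCL3L3 and CCL4L2, exposed minus unexposed (horizontal axis, log2 scale). Filled points are values from the counts with their 95% counting interval, and open diamonds are values with the trend on length and GC content taken out. XCL1 (0.33) and XCL2 (0.26) lie farthest to the right among the members with narrow intervals, the interval of TNF spans -0.75 to 1.31, and LTB moves from 0.16 to 0.018 once the fit is removed.

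**Figure D2:**
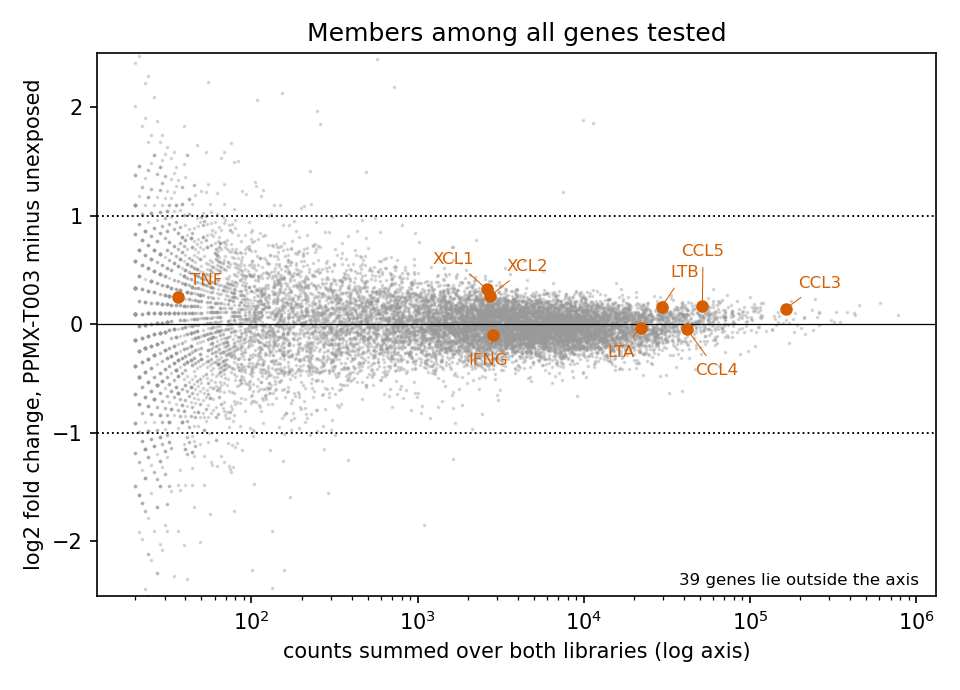
Log2 fold change (vertical axis) against the counts summed over both libraries (horizontal axis, log scale) for all 13665 genes tested, with the members in colour; 39 genes lie outside the vertical range. Dotted lines mark 2-fold, and all 9 members lie between them.

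The members differed far more in level than between the libraries. On the TPM scale, which corrects for length, the order in the unexposed library was CCL3, CCL4, CCL5, LTB, LTA, XCL2, IFNG and XCL1, with TNF and CSF2 both at 0. CCL3 alone held 53.7% of the members' summed TPM unexposed and 55.1% exposed, and it stood at rank 10 among all genes in both libraries. It was 2.87-fold above CCL4 unexposed and 3.30-fold exposed. CCL4 was 1.62-fold and 1.40-fold above CCL5, and CCL5 was 1.25-fold above LTB in each library, so these neighbours differed by less than 2-fold. LTB was 2.04-fold and 2.33-fold above LTA. XCL1, XCL2 and IFNG formed a lower group, with TPM values between 41 and 127. The order of the members above 0 was the same in the exposed library, where TNF was at 1, with IFNG (55) and XCL1 (54) almost level in the exposed library. Counts of the 10 members made up 0.340% of the unexposed and 0.367% of the exposed library.

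**Figure D3:**
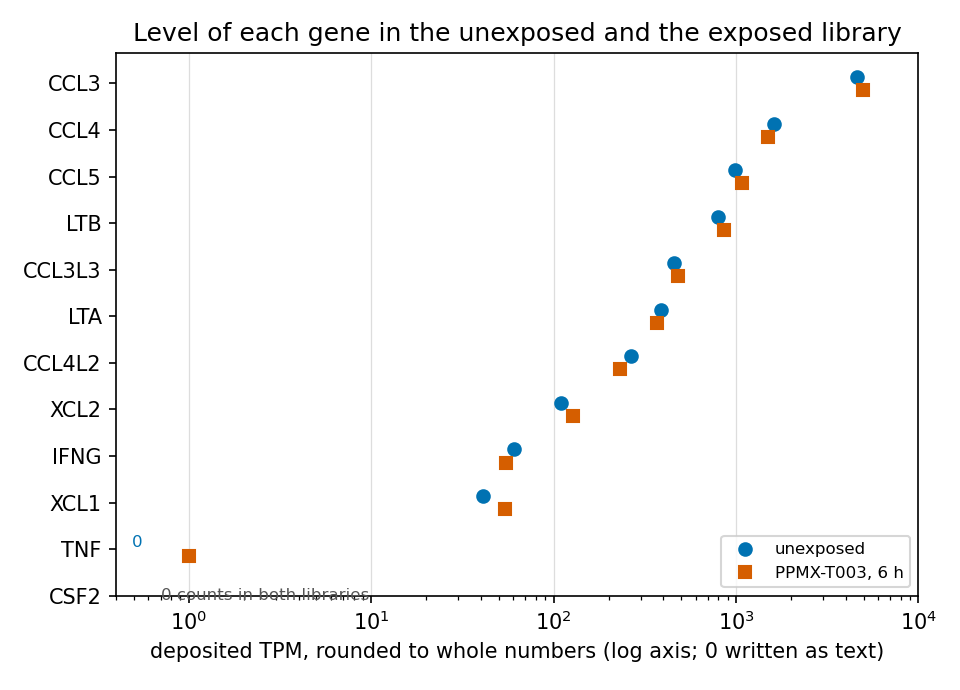
Deposited TPM of each member and of CCL3L3 and CCL4L2 in the unexposed (circles) and exposed (squares) library, on a log axis, with a value of 0 written as text. The levels run from 4622 and 4941 for CCL3 down to 0 and 1 for TNF, and CSF2 had 0 counts in both libraries.

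The chemokines fall into 2 structural classes. CCL3, CCL4 and CCL5 are CC chemokines, in which adjacent cysteines near the start of the mature protein anchor its fold, and XCL1 and XCL2 are C chemokines, which lack that pair. The difference is visible in the coding sequence (GENCODE 29, GRCh38, positions counted from the A of the start codon). In the CC stretches, from base 73 to 126 in CCL3 and CCL5 and from 76 to 129 in CCL4, capitals mark the adjacent pair of cysteine codons. In the XCL1 stretch, from base 70 to 120, they mark a lone cysteine codon, and neither XCL1 nor XCL2 held an adjacent pair among its 3 cysteine codons.
CCL3: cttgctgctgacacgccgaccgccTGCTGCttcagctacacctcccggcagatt
CCL4: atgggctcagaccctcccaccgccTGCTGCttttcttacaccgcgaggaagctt
CCL5: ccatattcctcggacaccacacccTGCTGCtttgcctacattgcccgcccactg
XCL1: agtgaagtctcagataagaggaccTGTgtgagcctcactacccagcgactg

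CCL3 (MIP-1alpha, NCBI gene 6348, chr17:36088256-36090169, minus strand) had 81325 counts unexposed and 82898 exposed. These were 0.174% (95% Clopper-Pearson interval 0.173% to 0.175%) and 0.192% (0.191% to 0.193%) of the libraries. Its log2 fold change was 0.14 (0.13 to 0.16), which is 10.6% higher with PPMX-T003. Of the genes with at least 1000 counts, 32.6% differed by at least as much in either direction. The value was 0.13 with the deposited FPKM and 0.096 with TPM. It was 0.033 after a fit with the longest transcript, a setting added after seeing the data. The counting error was thus small, but the size of the difference depends on the processing, and it was no larger than that of many other well covered genes. GENCODE lists 1 antisense gene over its exons, and whether strand was used in the counting was not tested.

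CCL5 (RANTES, gene 6352, chr17:35871491-35880793, minus strand) was at 25359 and 26269 counts, a log2 fold change of 0.17 (0.14 to 0.19). Its TPM was 991 and 1072. It was therefore 12.4% higher in the exposed library by counts. The log2 value was 0.15 with the deposited FPKM, 0.11 with TPM and 0.079 after the fit with the longest transcript. CCL4 (MIP-1beta, gene 6351, chr17:36103590-36105621, plus strand) had 22114 and 19733 counts and a log2 fold change of -0.047 (-0.075 to -0.019). CCL4 was the only member whose interval lay below 0 under TMM scaling, and the difference amounted to -3.21%. The value was -0.065 with the deposited FPKM and -0.10 with TPM. After a fit with the longest transcript, a setting added after seeing the data, it was -0.11, so its size depends on the processing.

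Ratios between genes inside a library do not depend on scaling. There were 3.68 counts of CCL3 for each count of CCL4 in the unexposed library and 4.20 in the exposed library, a log2 ratio difference of 0.19 (0.16 to 0.22). The ratio of CCL5 to CCL4 went from 1.15 to 1.33, a difference of 0.22 (0.18 to 0.25). CCL4 therefore differed from both other CC chemokines in the same direction, by more than counting error.

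CCL3 and CCL4 have near-identical copies on chromosome 17, between which StringTie could divide reads, and their values are uncertain for that reason. The coding sequences of CCL3 and CCL3L3 were identical at 96.7% of their aligned bases, with 9 substitutions and 3 bases present in CCL3L3 alone. Those of CCL4 and CCL4L2 were identical at 97.5%, with 7 substitutions. Reads can be told apart at any of these differences, and only coding sequences were compared. The 60-base stretches with most substitutions, 4 in each pair, are shown with the differing bases in capitals. They run from base 199 to 258 in CCL3, from 202 to 261 in CCL3L3 and from 178 to 237 in CCL4 and CCL4L2.
CCL3: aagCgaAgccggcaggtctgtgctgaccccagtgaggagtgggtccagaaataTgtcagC
CCL3L3: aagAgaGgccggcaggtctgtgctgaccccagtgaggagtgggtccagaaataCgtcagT
CCL4: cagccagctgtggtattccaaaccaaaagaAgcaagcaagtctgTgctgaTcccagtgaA
CCL4L2: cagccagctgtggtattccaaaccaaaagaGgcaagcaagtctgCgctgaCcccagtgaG
In the CCL3 stretch the substitutions were C202A, A205G, T252C and C258T, and in the CCL4 stretch A208G, T222C, T228C and A237G, with the first gene's base before and the copy's base after the position in the first gene.

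CCL3L3 (chr17:36194869-36196758, minus strand) had 7507 and 7557 counts, with a log2 fold change of 0.13 (0.081 to 0.17). It took 8.45% of the counts of the CCL3 pair unexposed and 8.35% exposed. CCL4L2 (chr17:36210924-36212878, plus strand) had 4455 and 3767 counts, with a log2 fold change of -0.12 (-0.19 to -0.062), and took 16.8% and 16.0% of its pair. Each copy thus lay on the same side of 0 as its namesake, but CCL4L2 was farther from 0 than CCL4. The ratio of CCL4 to CCL4L2 counts went from 4.96 to 5.24, a log2 difference of 0.078 (0.0092 to 0.15), and that of CCL3 to CCL3L3 from 10.8 to 11.0, with an interval that held 0 (-0.030 to 0.066). Summing the copies gave 0.14 for CCL3 and -0.060 for CCL4. CCL3L1 and CCL4L1 have no entry of their own among the symbols used here.

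XCL1 and XCL2, the lymphotactins, are neighbours on chromosome 1 (XCL1, gene 6375, chr1:168576473-168582077, plus strand; XCL2, gene 6846, chr1:168540765-168543997, minus strand). Their coding sequences were identical at 98.5% of 342 bases, with 5 substitutions. Likeness outside the coding sequences was not measured. The stretch from base 64 to 123 holds 3 of the 5 substitutions in capitals (G82C, A86G and G123A, with XCL1 first).
XCL1: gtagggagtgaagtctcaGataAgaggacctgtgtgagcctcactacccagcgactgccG
XCL2: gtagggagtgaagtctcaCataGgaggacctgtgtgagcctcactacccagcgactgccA

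XCL1 had 1206 counts unexposed and 1394 exposed, a log2 fold change of 0.33 (0.21 to 0.44), or 25.3% higher. XCL2 had 1292 and 1428 counts, a log2 fold change of 0.26 (0.15 to 0.37), or 19.9% higher. These were the largest differences among members with at least 1000 counts. Of all genes at that depth, 3.65% differed by at least as much as XCL1 and 8.12% by at least as much as XCL2. XCL1 had 0.933 counts for each count of XCL2 unexposed and 0.976 exposed, a difference of 0.065 with an interval that held 0 (-0.091 to 0.22). StringTie could divide reads between XCL1 and XCL2 as well. Their separate values and their balance are therefore uncertain beyond counting error. Summed, the pair had a log2 fold change of 0.29. The deposited TPM put XCL1 at 41 and 54, and XCL2 at 110 and 127.

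IFNG (interferon gamma, gene 3458, chr12:68154768-68159747, minus strand), the signature cytokine of NK cells, had 1534 counts unexposed and 1317 exposed. Its log2 fold change was -0.10 (-0.21 to 0.0044). The interval held 0 under TMM scaling and lay just below 0 with median-of-ratios scaling (-0.22 to -0.0054). The value was -0.15 with TPM, and 0.0093 after the fit on length and GC content. With the longest transcript in that fit, a setting added after seeing the data, it was -0.051. Since the TMM interval held 0 and the sign depended on the processing, no direction is given for IFNG. Its TPM of 61 and 55 ranked 2991 and 3159 among all genes. NK92 thus held IFNG mRNA in both dishes at a level far under that of the CC chemokines.

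LTA, TNF and LTB lie side by side in 10.5 kb of chromosome 6 (chr6:31572054-31582522). LTA (lymphotoxin alpha, gene 4049, plus strand), which is secreted as a homotrimer or joins LTB at the cell surface, had 11523 and 10394 counts. Its log2 fold change was -0.032 (-0.070 to 0.0069). LTB (lymphotoxin beta, gene 4050, minus strand), the membrane anchor of that complex, had 14478 and 14948 counts and a log2 fold change of 0.16 (0.13 to 0.20). LTB was thus higher in the exposed library, while the interval of LTA held 0. After the fit on length and GC content described below, it was LTB whose interval held 0 (-0.015 to 0.051), and that of LTA lay below 0 (-0.14 to -0.061). The ratio of LTB to LTA counts was 1.26 unexposed and 1.44 exposed, a log2 difference of 0.19 (0.14 to 0.25). The counts for the subunits of the surface complex were therefore not in the same proportion in the 2 libraries, before any correction for length and GC content.

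TNF (gene 7124, chr6:31575567-31578336, plus strand), between these expressed neighbours, had only 17 and 19 counts. Its TPM was 0 and 1, and its log2 fold change of 0.25 had an interval from -0.75 to 1.31. At this depth neither a rise of 2-fold nor a fall of 1.5-fold could be told from no difference. CSF2 (GM-CSF, gene 1437, chr5:132073790-132076170, plus strand) was listed with 0 counts in both libraries. A count of 0 allows up to a CPM of 0.0641 unexposed and 0.0695 exposed (3 counts of the total) if a listed 0 means that no read was found, and no fold is given. Both genes are known to be strongly inducible in activated lymphocytes. TNF was not abundant here in either dish, while the level of CSF2 rests on a listed 0, whose meaning was not tested.

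RefSeq promoters of 300 bases (250 before and 50 after the start, GRCh38.p14) were found for 7 of the 10 members: IFNG, TNF, LTA, LTB, CSF2, CCL3 and XCL2. Both strands were searched for TATAAA, for the AP-1 motif TGANTCA and for the NF-kB consensus. These members have 11 entries, since LTA and LTB have 2 each and CCL3 has 3. TATAAA occurred in 4 of the 11 entries (those of TNF and IFNG and 1 each of LTA and CCL3) and in 11.5% of all 35116. The NF-kB consensus occurred in 1 entry of LTA and in both of LTB, which are the same site in windows 1 base apart, and in 5.91% of all. It was thus found in 2 of the 7 members. TGANTCA occurred in 0 entries and in 7.71% of all. A match is a description of the letters and no evidence of a bound factor. The 150 bases before the start are shown for TNF (chr6:31575415-31575564, plus strand) and IFNG (chr12:68159741-68159890, minus strand), since both hold TATAAA, in capitals, at 29 and 31 bases before the start.
TNF: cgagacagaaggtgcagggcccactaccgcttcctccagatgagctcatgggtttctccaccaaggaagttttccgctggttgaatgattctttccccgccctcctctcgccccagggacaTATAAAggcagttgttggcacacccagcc
IFNG: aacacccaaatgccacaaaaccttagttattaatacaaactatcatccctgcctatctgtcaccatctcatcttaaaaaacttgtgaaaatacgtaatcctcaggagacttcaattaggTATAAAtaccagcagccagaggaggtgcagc
In 1 of the 3 entries of CCL3, TATAAA also lay 29 bases before the start. Whether the motif goes with the level of a transcript was not tested.

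Fold changes of all genes followed the GC content of their transcripts, and the members were read beside that trend. With genes put in 10 bins by GC content, the median log2 fold change was -0.13 in the lowest bin and 0.12 in the highest. LTB, with a GC content of 64.2%, lies in the highest bin. Once a regression on length and GC content had been subtracted, LTB was at 0.018, with a shifted interval of -0.015 to 0.051 that held 0. Its value without the fit, 0.16 (0.13 to 0.20), lay above the median of 0.12 of its own bin. Which part of the decrease goes with length and which with GC content was not tested. IFNG, in the lowest bin, moved from -0.10 to 0.0093. CCL3 moved to 0.098 and CCL5 to 0.12, which kept their sign, and CCL4 moved to -0.042. LTA moved from -0.032 to -0.10, with a shifted interval of -0.14 to -0.061. XCL1 (GC content 40.1%) and XCL2 (45.7%) lie where the trend is negative, at -0.093 and -0.041, and were higher after the fit, at 0.40 and 0.28. With the longest transcript in the fit, a setting added after seeing the data, XCL1 was at 0.35 and XCL2 at 0.20. With TPM, XCL1 was at 0.39 and XCL2 at 0.21, so XCL2 was lower under both than without the fit. After the fit, which was combined with the intervals only after seeing the data, 4 members were above 0 and 2 below, where the shifted interval lay above 0 for 20.3% and below 0 for 20.2% of the 11962 genes tested with known length and GC content. The ordering of the members by difference thus placed XCL1 and XCL2 first with and without the fit.

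Receptors come next, since NK cells can answer to the ligands they release. Of 12 receptor genes, 9 were tested, 3 had an interval above 0, 3 below, and the median was -0.022. Of all genes tested, 21.8% were above and 23.9% below 0, and the counts of this and the later lists are given as values beside those shares. TNFRSF1B (TNF receptor 2) was the most abundant at 30295 and 30066 counts, with a log2 fold change of 0.11 (0.083 to 0.13). TNFRSF1A (TNF receptor 1) had 3558 and 3646 counts, a log2 fold change of 0.15 (0.085 to 0.22). TNFRSF14 (HVEM), which also binds lymphotoxin alpha, had 554 and 649 counts and was higher by 0.34 (0.18 to 0.51). The intervals of these 3 receptors lay above 0, and after the fit on length and GC content they were at -0.0068 for TNFRSF1B, where the shifted interval held 0, 0.074 for TNFRSF1A and 0.21 for TNFRSF14.

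CCR1, a receptor of CCL3 and CCL5, lay on the other side, with 20342 and 17080 counts and a log2 fold change of -0.13 (-0.16 to -0.11). IFNGR1, the ligand-binding chain of the interferon gamma receptor, had 1261 and 1016 counts, a log2 fold change of -0.19 (-0.32 to -0.074). After the fit on length and GC content these were at -0.082 and -0.10, and the shifted interval of IFNGR1 held 0 (-0.22 to 0.019). XCR1, the receptor of XCL1 and XCL2, had 5059 and 4508 counts, and its log2 fold change of -0.049 had an interval from -0.11 to 0.0091. CSF2RB, the signalling chain for GM-CSF, had 3599 and 3267 counts, and its interval of -0.091 to 0.046 also held 0. After the fit CSF2RB was at -0.075, and its shifted interval lay below 0 (-0.14 to -0.0062). CCR3, another receptor of CCL5, had 32 and 34 counts. IFNGR2, LTBR and CSF2RA were listed with 0 counts in both libraries. IFNGR2 is broadly expressed in other cells, and whether a listed 0 means that no read was present was not tested, for it or for any other gene listed at 0, CSF2 included.

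Other cytokine and chemokine ligands were also counted. Of 46 such genes, 25 were listed with 0 counts in both libraries and 16 were tested. Among 46425 genes of the table, 27349 were at 0 in both libraries and 13665 were tested. The interval lay above 0 for 5 ligands and below 0 for 5. The median was 0.034, and it was -0.012 after the fit, -0.061 without the filter on counts and 0 with TPM. IL32, an intracellular cytokine of NK and T cells, was abundant at a TPM of 2644 and 2812, between CCL3 and CCL4. MIF, a macrophage-directed cytokine, had 12624 and 13937 counts, with a log2 fold change of 0.26 (0.23 to 0.29) that was 0.094 after the fit. IL10, an inhibitory cytokine, had 1251 and 1519 counts and was higher by 0.40 (0.29 to 0.51), and by 0.38 after the fit. CSF1, the macrophage growth factor, had 27482 and 19050 counts, with a log2 fold change of -0.41 (-0.44 to -0.38) that was -0.50 after the fit, the lowest of these ligands. Of the genes with at least 1000 counts, 1.27% differed by at least as much as CSF1. CSF1 was thus abundant in both libraries, while CSF2, the growth factor gene among the members, was listed at 0.

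Of 31 transcription factors of cytokine genes, 29 were tested, 11 had an interval above 0 and 7 below, and the median was 0.0028. TBX21 (T-bet), which drives IFNG in NK cells, had 16085 and 17584 counts, a log2 fold change of 0.25 (0.21 to 0.28). JUNB, an AP-1 subunit, had 1845 and 2115 counts and was higher by 0.31 (0.22 to 0.41). REL, an NF-kB subunit of lymphocytes, had 1424 and 1000 counts, a log2 fold change of -0.39 (-0.51 to -0.28). After the fit these 3 were at 0.17, 0.18 and -0.23. TBX21 was thus higher in the exposed library, while the interval of IFNG held 0.

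The next list holds genes that act on the stability of cytokine mRNAs, only some of which encode proteins that bind AU-rich elements. Of the 15 genes listed, 14 were tested, 3 were above and 6 below 0, and the median was -0.044. ZFP36 (tristetraprolin), which destabilises TNF and CSF2 mRNA, had 2430 and 2686 counts, a log2 fold change of 0.26 (0.18 to 0.34). RC3H1 and RC3H2, the roquins, differed by -0.21 (-0.29 to -0.13) and -0.18 (-0.24 to -0.12). After the fit, ZFP36 was at 0.14, RC3H2 at -0.091 and RC3H1 at 0.022 with a shifted interval that held 0. HNRNPD (AUF1) and KHSRP were the most abundant of the list, at a TPM of 499 and 522 for the first and 363 and 366 for the second.

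Of 15 genes of shedding and secretion, 14 were tested, 2 were above and 6 below 0, and the median of -0.076 was 0.015 after the fit. ADAM10, a sheddase, had 7524 and 6050 counts, a log2 fold change of -0.20 (-0.25 to -0.15), although its TPM was listed at 40 and 45. RAB27A, which docks secretory granules, differed by -0.10 (-0.14 to -0.064), and STX4, a membrane fusion protein, by 0.23 (0.10 to 0.36). After the fit, ADAM10 was at -0.19, RAB27A at -0.066 and STX4 at 0.14. SRGN (serglycin), the granule proteoglycan that holds chemokines and granzymes, was the most abundant at a TPM of 679 and 626.

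Signalling genes upstream of cytokine induction numbered 28, all tested, with 8 above and 6 below 0 and a median of 0.022. IL2RB and IL2RG, chains of the interleukin 2 receptor on which NK92 depends, had 56260 and 55986 counts and 13204 and 12614 counts. Their log2 fold changes were 0.11 (0.093 to 0.13) and 0.051 (0.016 to 0.087), and after the fit they were 0.0051 and 0.017, with shifted intervals that held 0. ZAP70, a kinase of activating receptors, was higher by 0.22 (0.17 to 0.26), and IL12RB1, a chain of the interleukin 12 receptor, by 0.22 (0.14 to 0.30), which became 0.11 and 0.12 after the fit.

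Targets of the ligands were counted last. Of 21 targets of interferon gamma, 16 were tested, 7 were above and 4 below 0, and the median was 0.041. SOCS1, a feedback inhibitor, had 78 and 116 counts and was higher by 0.68 (0.26 to 1.12), and IRF1 had 8716 and 9227 counts and was higher by 0.20 (0.16 to 0.24). The immunoproteasome genes PSMB8 and PSMB9 were higher by 0.075 (0.040 to 0.11) and 0.17 (0.13 to 0.22). After the fit, SOCS1 was at 0.52, IRF1 at 0.13, PSMB9 at 0.097 and PSMB8 at 0.015 with a shifted interval that held 0. Of 16 targets of TNF through NF-kB, 15 were tested, 7 were above and 3 below 0, and the median of 0.073 was 0.0016 after the fit. SQSTM1 was higher by 0.30 (0.21 to 0.40), and the apoptosis inhibitor genes BIRC3 and BIRC2 differed by -0.27 (-0.35 to -0.19) and -0.25 (-0.34 to -0.17). These were 0.18, -0.12 and -0.18 after the fit. NFKBIB and ICAM1 were the most abundant targets, at a TPM of 126 and 125 for NFKBIB and 96 and 103 for ICAM1.

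**Figure D4:**
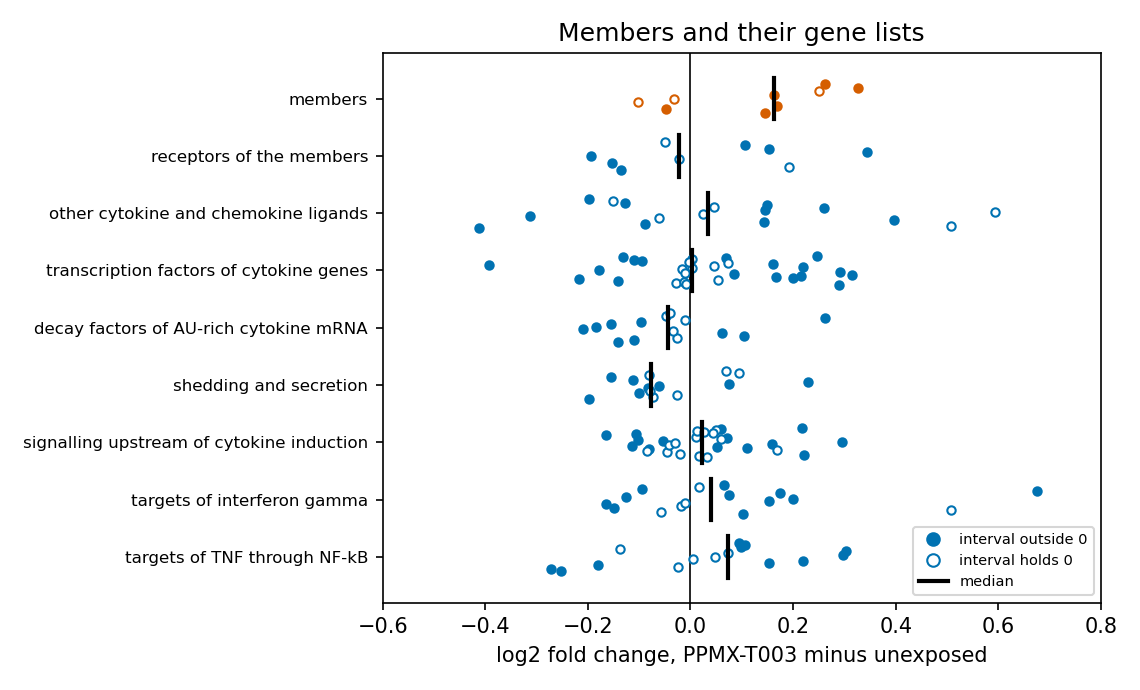
Log2 fold change of every tested gene of the members and of the 8 gene lists (horizontal axis), with black bars for medians. Filled points have a counting interval outside 0. The median of the members is 0.16, and those of the 8 lists run from -0.076 (shedding and secretion) to 0.073 (targets of TNF through NF-kB).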

How the data were processed

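Values were taken for 2 libraries of NK92 cells, 1 per condition. Per the submitters' processing notes, the authors used Trimmomatic 0.38, HISAT2 2.2.0, StringTie 2.1.3b and edgeR 3.17 with the hg38 build. For each gene, the authors deposited the number of reads (counts, not scaled) and an FPKM and TPM score rounded to whole numbers. Counts are written with commas as separators. These were removed, and the unit is recorded as other on that account. StringTie derives counts from transcript coverage, so shared reads are divided by an estimate, and a gene's TPM can move differently from its counts when the division between its transcripts differs.

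TMM scaling (trims of 30% on log ratios and 5% on levels) and CPM on the log2 scale (prior count 2) were computed with numpy 2.4.6, scipy 1.17.1 and pandas 2.3.3 under Python 3.11.15, and tested on simulated data. Genes with at least 20 summed counts were tested, 13665 in all. No count model was fitted and no p-value is given. Length and GC content (GENCODE 29 medians, matched by gene identifier for 87.5% of tested genes and all 10 members) entered a robust regression in statsmodels 0.14.6 over 9949 genes with at least 200 counts. The other scalings, prior counts, filters and thresholds tried are in the closing section.

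Named are the members, their copies, receptors with at least 100 counts, and of each other list the 3 genes with at least 100 counts and the interval bound farthest from 0 and the 2 of highest TPM. CCR3, the receptors at 0 and the markers other than the ranked ones were named after their values were seen. The results of 2 genes that the rule names are not reported here. The members and lists were chosen with earlier results of these data known.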

Additional observations from a re-analysis of the deposited data

How the results depend on the processing

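No paired analysis was possible because there is 1 library for each condition. All 9 tested members kept their sign under each scaling and prior count. Members above 0 by the counting interval stayed at 5 under the other scalings and the 99% interval. Members below 0 numbered 3 with median-of-ratios scaling, and 2 with the interval shifted by either fit on GC content, chosen after seeing the data. With the deposited TPM, 1 member, TNF, passed 2-fold upwards, from 0 to 1. LTB was at 0.018 after the fit and reversed to -0.027 when the fit used the longest transcript, an alternative added after seeing the data. The cause was not tested. Under these fits, in the same order, LTA was at -0.10 and -0.14, CCL3 at 0.098 and 0.033 and CCL5 at 0.12 and 0.079, while CCL4 reached -0.11 with the longest transcript and IFNG 0.0093 with the median length. With TPM the values were -0.084 for LTA, 0.11 for LTB, 0.096 for CCL3, -0.10 for CCL4 and 0.11 for CCL5. With the deposited FPKM they were -0.045, 0.15, 0.13, -0.065 and 0.15 in that order, each higher than with TPM. Within a library TPM and FPKM differ by a common factor, so that part of the TPM shift is shared by all genes. The members' median was 0.11 with TPM and 0.098 after the fit. Over all genes, 1448 were at least 2-fold higher and 1033 lower without a filter, 13 and 8 with at least 200 counts, 3 and 2 with at least 1000 counts (added after seeing the data), 96 and 120 after the fit, which leaves out genes without a length, and 538 and 525 at 1.5-fold. With TPM, 217 were higher and 287 lower. In all, 61 of 76 values of members under alternatives stayed within their counting interval. Depth limits TNF and CSF2, and counting intervals cover no difference between dishes.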
